A study of Mus musculus with 6 samples.

Results

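Expression of 9 genes of the Hedgehog pathway was examined in D3 and MIN6 cells, namely the ligand genes Shh and Ihh, the receptor gene Ptch1, the decoy receptor gene Hhip, the transducer gene Smo, and Sufu, Gli1, Gli2 and Gli3, which act downstream of Smo. All probes whose platform annotation gives 1 of these 9 symbols were taken, which gave 20 of the 45281 probes on the array and 9 of the 19057 genes measured. The rule uses names only and no measured value. D3 is a line of mouse embryonic stem (ES) cells, grown on gelatin with leukemia inhibitory factor, at passage 21 by the labels, while the study's methods give a range of later passages. MIN6 is a mouse β-cell insulinoma line that secretes insulin, grown without that factor, at passage 23 by the labels. RNA from 3 samples of each cell line was hybridized to BeadChip arrays (Mouse WG-6 v2.0, Illumina), with 1 array for each sample. The study's methods and the series record call the samples independent, and if some came from 1 culture, the p-values cover technical spread alone. Each cell type is represented by 1 line in its own medium, so cell type, line and medium cannot be told apart.

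Hedgehog proteins are secreted signals that pattern many embryonic tissues. Without ligand, the receptor PTCH1 holds the membrane protein SMO inactive, and the GLI factors are retained by SUFU or processed into repressors. When ligand binds PTCH1, SMO is released at the primary cilium and GLI proteins activate target genes, among them Gli1, Ptch1 and Hhip themselves. In mouse development Shh is kept out of the early pancreatic bud, while neighbouring gut endoderm expresses it.

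The median signal lay between 134 and 188 on the 6 arrays, and 34.4 to 35.9% of probes were above background on each at a detection p under 0.01. Across probes, which are not independent replicates, r was 0.993 to 0.994 for the log2 signals of any pair of arrays from 1 line. All 5 markers of pluripotent cells (Pou5f1, Nanog, Sox2, Zfp42 and Utf1) were above background on every D3 array and on no MIN6 array, and the reverse held for 5 markers of β-cells (Ins2, Iapp, Pdx1, Nkx6-1 and Slc30a8). Of 8 markers of fibroblasts and mesenchyme, which are common sites of Hedgehog response, none was above background on any array, and their summed signal was 936 to 1172 on the D3 arrays and 873 to 1223 on the MIN6 arrays. Of 5 measured germ layer markers, Gata6 and Nes were above background on at least 1 D3 array and none on a MIN6 array. Of 6 measured markers of acinar and ductal cells, Krt19 was above background in both lines and Cela1 in D3 cells only. In bulk RNA, fewer cells expressing a gene and less RNA per cell cannot be told apart.

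Of the 9 genes, 4 (Gli2, Gli3, Smo and Ptch1) were lower in MIN6 than in D3 cells, 1 (Shh) was higher, and Sufu, Hhip, Gli1 and Ihh were not called. A gene was called at an adjusted p under 0.05 (limma, Benjamini-Hochberg over all probes) and at least 1.5-fold, on quantile-normalized log2 signals, using the probe of the gene with the highest mean signal. By this rule 34.5% of all 19057 genes were called, 17.5% lower and 17.1% higher in MIN6 cells, against 4 lower and 1 higher of the 9. Among genes above background on at least 1 array the share called was 60.1%. Of the 9 genes, 7 were above background on at least 1 array, and these included all 5 that were called. The median change of the 9 genes was -0.57 on the log2 scale, and that of all genes was -0.01. Counted as probes, 7 of the 20 were lower and 2 were higher, against 25.9% of all probes called, 13.4% lower and 12.5% higher. In 7 of the 9 genes the 3 D3 and 3 MIN6 values did not overlap, as in 54.4% of all genes, and in 14 of the 20 probes, as in 46.1% of all probes. Of the 20 probes, 8 were above background on no array, and these included the only probes of Gli1 and Hhip.

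**Figure D1:**
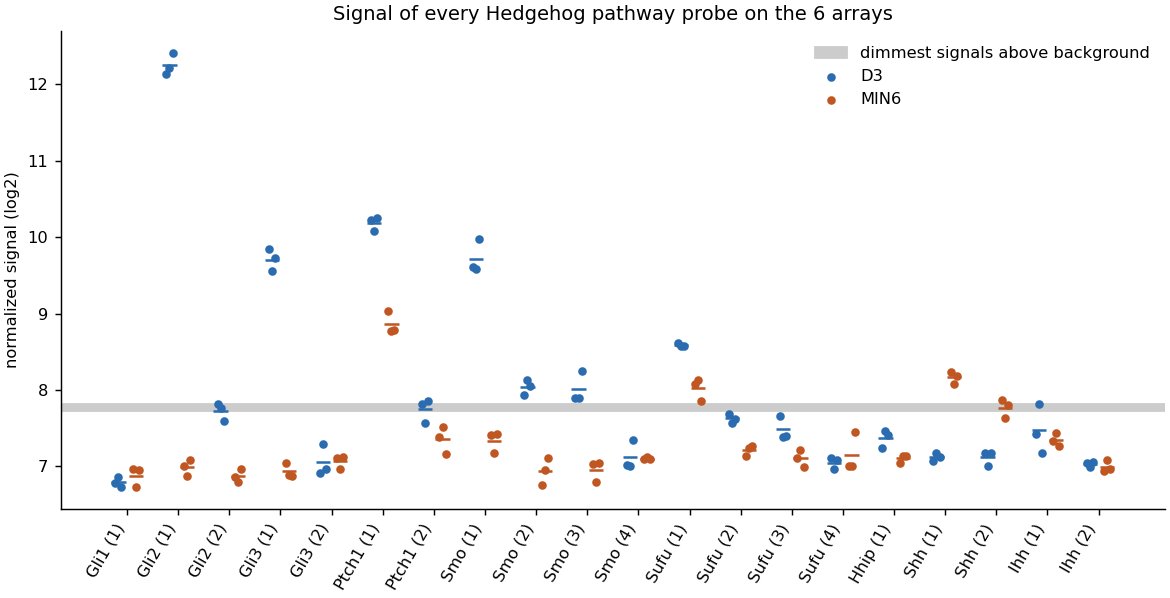
Quantile-normalized signal on the log2 scale (vertical axis) of each of the 20 probes, numbered within a gene from the brightest, on the 3 D3 arrays (blue) and the 3 MIN6 arrays (orange). Points are arrays, short lines are group means, and the grey band spans the dimmest signals above background on the arrays (7.72 to 7.81). The first Gli2 probe lies at 12.14 to 12.41 in D3 cells and at 6.87 to 7.08 in MIN6 cells, while both Shh probes are brighter in MIN6 cells.

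Gli2, which encodes the main activator among the GLI factors, had the largest change of the 9. In D3 cells its log2 signal was 12.14, 12.21 and 12.41, and in MIN6 cells it was 7.01, 6.87 and 7.08. Every D3 array was thus far above every MIN6 array, and none of the MIN6 values was above background. The level of Gli2 in MIN6 cells was lower by at least 22.7-fold, a bound set against the dimmest signals above background on the MIN6 arrays, with a fitted change of -5.26 on the log2 scale (SE 0.10, limma, adjusted p = 9.11e-20). A dimmer probe of the same transcript was above background on 1 D3 array only, at 7.82, with 7.77 and 7.60 on the other D3 arrays and 6.86, 6.79 and 6.97 in MIN6 cells. That probe was also called lower (log2 change of -0.86, SE 0.10, limma, adjusted p = 2.6e-07), with a signal too close to background for a fold. With the mean of both probes the fitted change was -3.06 and in the authors' processed values it was -4.41. Both are smaller than the bound, which is -4.51 on the log2 scale, and with normexp background correction the bound was at least 50.9-fold.

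Gli3 encodes the GLI factor that acts mostly as a repressor, and it too was at background in MIN6 cells. The log2 signals were 9.84, 9.55 and 9.73 in D3 cells against 7.04, 6.89 and 6.87 in MIN6 cells, with no overlap. In MIN6 cells it was lower by at least 3.90-fold (fitted log2 change of -2.77, SE 0.10, limma, adjusted p = 2.47e-15). The other Gli3 probe, for the same transcript accession, was above background on no array and was not called (log2 change of 0.01). The mean of both probes gave a fitted change of -1.38, smaller than the bound, and the authors' processed values gave -1.96. With normexp background correction the bound was at least 7.66-fold.

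Gli1 encodes an activator and is itself a target of the pathway, widely used as a readout of signaling. Its single probe was above background on no array, at 6.78, 6.86 and 6.73 in D3 cells and 6.96, 6.73 and 6.95 in MIN6 cells. These values overlapped and lay below the dimmest signals above background, so no fold is given. The difference had a 95% interval of -0.11 to 0.30 on the log2 scale (limma, adjusted p = 0.538). A lower or higher level of Gli1 below the background of the array was not detectable.

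Smo encodes the membrane transducer, and 3 of its 4 probes were lower in MIN6 cells. The brightest probe had log2 signals of 9.61, 9.58 and 9.97 in D3 cells and 7.41, 7.17 and 7.42 in MIN6 cells. All D3 values were above background and no MIN6 value was. Smo was at least 3.93-fold lower (fitted log2 change of -2.39, SE 0.11, limma, adjusted p = 1.83e-13). Both other probes of the same transcript were nearer to background in D3 cells, with means of 8.04 and 8.01, and were at least 1.23-fold and at least 1.21-fold lower (limma, adjusted p = 1.62e-08 and 6.66e-08). The fourth probe, whose accession is a cDNA clone outside the RefSeq transcripts of Smo, was above background on no array and was not called (log2 change of -0.03). The mean over the 4 probes gave a fitted change of -1.14 and the authors' processed values -1.76, both smaller than the bound, and normexp background correction gave a bound of at least 7.72-fold.

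Ptch1 encodes the receptor that restrains SMO and is a target of the pathway in many tissues. Unlike Smo, Gli2 and Gli3, it was above background on all 6 arrays. The log2 signals were 10.23, 10.08 and 10.25 in D3 cells and 9.03, 8.77 and 8.79 in MIN6 cells. The groups were separate, and the difference was 2.50-fold, lower in MIN6 cells (log2 change of -1.32, SE 0.10, 95% interval 2.16- to 2.90-fold, limma, adjusted p = 5.05e-10). The second probe of Ptch1 was above background on 2 D3 arrays and on no MIN6 array. It had 7.82, 7.57 and 7.86 in D3 cells and 7.38, 7.52 and 7.16 in MIN6 cells, and its log2 change of -0.39 (limma, adjusted p = 0.00631) was under 1.5-fold. The mean of both probes gave 1.81-fold, the authors' processed values 2.22-fold and normexp background correction 3.03-fold. The interval of the brighter probe thus does not cover the spread between ways of processing.

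Sufu encodes the cytoplasmic protein that binds and restrains the GLI factors, and its difference lay just under the fold threshold. The brightest probe, above background on all 6 arrays, had log2 signals of 8.62, 8.57 and 8.57 in D3 cells and 8.08, 8.13 and 7.86 in MIN6 cells. No MIN6 value reached a D3 value, and the difference was 1.48-fold, lower in MIN6 cells (95% interval 1.28 to 1.71, limma, adjusted p = 6.54e-05). Without MIN6 replicate 2 it was 1.53-fold and was called, and with normexp background correction it was 1.91-fold and was called. With no fold threshold it was called at 1.48-fold. Leaving out D3 replicate 2, D3 replicate 3 or MIN6 replicate 1 gave 1.49- to 1.5-fold, uncalled. Some other alternatives made the difference smaller and left it uncalled. It was 1.24-fold with the mean of all probes, 1.32-fold in the authors' processed values, 1.34-fold with median scaling and 1.39-fold without MIN6 replicate 3. The interval of the brightest probe thus does not cover the spread between ways of processing. In MIN6 cells that probe was close to the dimmest signals above background, which were 7.78, 7.72 and 7.73 on those arrays. The 3 other Sufu probes were above background on no array, with log2 changes of -0.42, -0.37 and 0.10.

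Hhip encodes a membrane protein that binds Hedgehog ligands and limits their reach, and like Ptch1 it is a pathway target. Its single probe had log2 signals of 7.24, 7.46 and 7.41 in D3 cells and 7.05, 7.13 and 7.14 in MIN6 cells. None of these was above background, although the D3 values were all above the MIN6 values. The log2 difference of -0.26 (95% interval -0.47 to -0.06, limma, adjusted p = 0.0375) was under 1.5-fold. Its adjusted p (limma) depended on single arrays. It was 0.0195 without D3 replicate 1, and from 0.0569 to 0.141 with any other array left out.

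**Figure D2:**
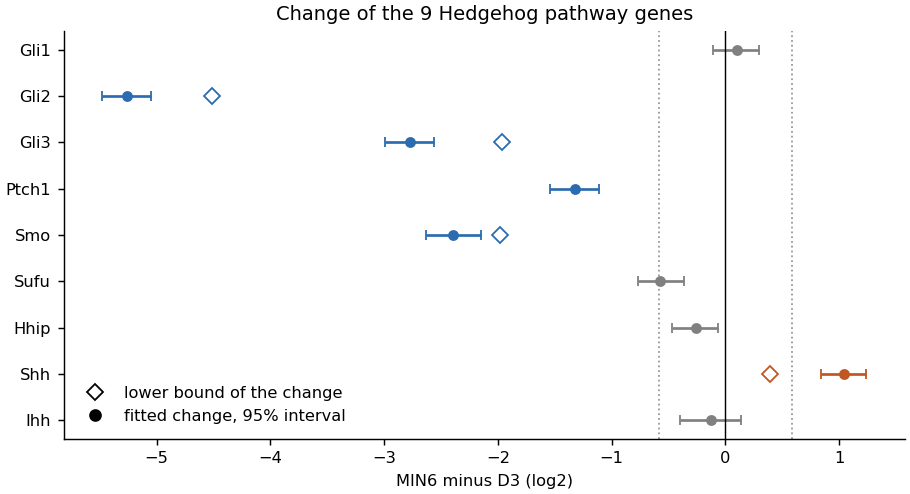
Fitted change from D3 to MIN6 cells on the log2 scale (horizontal axis) for each of the 9 genes, with its 95% interval from limma (n = 3 arrays for each cell line). Open diamonds are the lower bounds of Gli2, Gli3, Smo and Shh, each at background in 1 cell line, dotted lines mark 1.5-fold, and grey points were not called. Gli2 is farthest from 0 at -5.26 and Shh is the only gene called higher, at 1.04.

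Shh, the ligand gene of the family with the broadest embryonic role, was the member that was higher in MIN6 cells. The brighter probe had log2 signals of 7.07, 7.18 and 7.12 in D3 cells and 8.24, 8.08 and 8.18 in MIN6 cells. All 3 MIN6 values were above background and no D3 value was. In MIN6 cells Shh was higher by at least 1.31-fold (fitted log2 change of 1.04, SE 0.10, limma, adjusted p = 7.89e-09), and at least 1.68-fold with normexp background correction, which also raised the fitted change to 2.18. The second probe gave 7.17, 7.01 and 7.17 in D3 cells and 7.87, 7.63 and 7.80 in MIN6 cells. It was above background on 2 MIN6 arrays and was called higher as well (log2 change of 0.65, SE 0.10, limma, adjusted p = 1.36e-05). The signals of both probes were dim in MIN6 cells, the linear intensity of the brighter one being 376.3, 253.7 and 274.0 against array medians of 188, 145 and 139.

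Ihh, a ligand gene known from cartilage and gut, was not called. The brighter of its 2 probes had log2 signals of 7.42, 7.82 and 7.18 in D3 cells and 7.33, 7.44 and 7.27 in MIN6 cells, and only D3 replicate 2 was above background. The values overlapped, with a log2 difference of -0.13 (95% interval -0.40 to 0.14, limma, adjusted p = 0.504) that became 0.05 without D3 replicate 2. The second Ihh probe was above background on no array.

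The promoters of the 4 genes that were lower in MIN6 cells are shown because these genes moved in the same direction. Histone marks at these promoters were not tested, and a link between CpG content and the change in expression was not tested. The sequences are the 250 bases before the RefSeq gene start on GRCm38.p6, read 5′ to 3′ on the strand of the gene, with CpG dinucleotides in capitals. Gli2 is at chr1:119053620-119053869 (minus strand), Gli3 at chr13:15463473-15463722 (plus), Smo at chr6:29735247-29735496 (plus) and Ptch1 at chr13:63565736-63565985 (minus).
Gli2: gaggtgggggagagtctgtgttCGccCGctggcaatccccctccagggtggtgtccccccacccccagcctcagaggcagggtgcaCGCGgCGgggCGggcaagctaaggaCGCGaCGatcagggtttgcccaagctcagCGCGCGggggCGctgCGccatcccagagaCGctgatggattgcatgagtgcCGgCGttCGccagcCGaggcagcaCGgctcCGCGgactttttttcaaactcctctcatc
Gli3: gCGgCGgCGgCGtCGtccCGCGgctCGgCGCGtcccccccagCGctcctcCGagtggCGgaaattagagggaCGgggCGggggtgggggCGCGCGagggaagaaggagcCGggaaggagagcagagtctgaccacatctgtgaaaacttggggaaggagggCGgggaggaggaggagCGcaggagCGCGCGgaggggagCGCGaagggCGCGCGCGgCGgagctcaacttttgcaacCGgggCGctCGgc
Smo: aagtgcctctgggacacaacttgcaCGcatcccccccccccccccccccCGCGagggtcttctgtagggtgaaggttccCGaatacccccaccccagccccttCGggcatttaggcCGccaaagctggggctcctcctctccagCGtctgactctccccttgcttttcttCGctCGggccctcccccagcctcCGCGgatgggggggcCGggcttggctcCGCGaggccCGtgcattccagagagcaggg
Ptch1: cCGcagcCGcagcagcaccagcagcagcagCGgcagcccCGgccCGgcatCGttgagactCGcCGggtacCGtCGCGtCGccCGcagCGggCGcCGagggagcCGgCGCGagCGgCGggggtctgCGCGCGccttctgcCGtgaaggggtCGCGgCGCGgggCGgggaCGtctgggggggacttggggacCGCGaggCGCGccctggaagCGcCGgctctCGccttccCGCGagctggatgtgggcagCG
Counted over the RefSeq window of 300 bases, which adds the first 50 bases of the gene, the Ptch1 promoter held 47 CpG dinucleotides, Gli3 39, Gli2 28 and Smo 17. The median over 32851 mouse promoters of that length was 7, with quartiles of 3 and 20, so Ptch1, Gli3 and Gli2 were above the upper quartile and Smo was within the quartiles. Of the genes that were not called, Hhip and Ihh each had 30 CpG dinucleotides, more than Gli2 and Smo, and Sufu had 12. The counts thus did not separate the genes that were lower from those that were not called. RefSeq promoters of Gli1 and Shh were not used here. The GLI binding motif GACCACCCA was searched on both strands and was in none of the 7 windows, whereas 83 of all promoters (0.253%) held it. A window without the motif says only that these letters are not in it.

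Other genes of ligand release and reception were mostly at background. Of 14 measured genes, 1 was higher, 2 were lower and 11 were not called in MIN6 cells (21.4% called, against 34.5% of all genes, with a median change of -0.02), and 8, among them the ligand gene Dhh and the co-receptor genes Boc and Gas1, were above background on no array. All 3 called genes were among the 6 of the list above background on at least 1 array. Of all such genes on the array, 60.1% were called. Gpc3, a cell surface glypican that competes with PTCH1 for ligand, was lower in MIN6 cells by at least 8.11-fold. Another Gpc3 probe was at least 7.86-fold lower, and a further one was above background on no array and was not called (log2 change of 0.00). Lrp2, an endocytic receptor that takes up SHH, was at least 5.66-fold lower by its brightest probe. The other Lrp2 probes were above background on no array and were not called (log2 changes of 0.00 and -0.18). Hhat, the acyltransferase that palmitoylates Hedgehog ligands, was called higher in MIN6 cells, with a fitted log2 change of 1.12 by a probe above background on only 1 of the D3 arrays. A second Hhat probe, above background on every MIN6 array and no D3 array, was at least 2.00-fold higher, while the remaining probe, also above background on every MIN6 array, was not called (log2 change of 0.21). The largest adjusted p of these 3 genes, for Hhat, was 3.31e-09 (limma).

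Genes of signal transduction and GLI processing went both ways, with 6 higher, 7 lower and 18 not called of 31. This was 41.9% called, against 34.5% of all genes, with a median change of 0.03. All 13 called genes were among the 26 of the list above background on at least 1 array. Of all such genes on the array, 60.1% were called. Evc2 and Evc, which encode partner proteins of SMO at the base of the cilium, were at least 3.94-fold and at least 2.58-fold lower in MIN6 cells, the same direction as Smo. Csnk1e, a casein kinase, was 3.86-fold lower and Tulp3, which brings GPR161 into the cilium, 2.71-fold lower. In contrast, Prkar1a, the regulatory subunit of protein kinase A, was 5.43-fold higher, and by a second probe, at background in D3 cells, at least 15.0-fold higher. Prkacb, a catalytic subunit of the kinase that marks GLI proteins for processing, was 2.89-fold higher, Dyrk1b, a kinase that acts on GLI factors, 3.20-fold and Iqce, a partner of the EVC proteins, 2.10-fold. The largest adjusted p of these 8 genes, for Iqce, was 5.41e-08 (limma), and another Dyrk1b probe, above background on 2 MIN6 arrays, was not called (log2 change of 0.57). A further Dyrk1b probe and the other probes of Evc, Evc2, Tulp3 and Iqce were above background on no array. None of these was called, with log2 changes from -0.18 to 0.14, while the other Csnk1e probe was also called lower (-1.84). Kif7, the ciliary kinesin that organizes GLI proteins, and Gpr161, a receptor that restrains the pathway, were above background on no array.

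Genes known as Hedgehog targets in other tissues also went both ways, with 9 higher, 4 lower and 11 not called of 24. This was 54.2% called, against 34.5% of all genes, with a median change of 0.04. All 13 called genes were among the 14 of the list above background on at least 1 array. Of all such genes on the array, 60.1% were called. Ccnd1, the cyclin D1 gene, was lower in MIN6 cells by at least 26.0-fold, Bmp4, a secreted signal, by at least 19.4-fold and Sfrp1, a secreted Wnt inhibitor, by at least 10.0-fold, while Ccne1, the cyclin E1 gene, was 3.97-fold lower. The 4 genes with the largest rise were Nkx2-2 (at least 38.6-fold), Nkx6-1 (at least 29.4-fold), Foxa2 (at least 5.60-fold) and Pax6 (at least 2.46-fold). They encode transcription factors that SHH regulates in the neural tube and that islet cells also express. Nkx6-1 is also among the β-cell markers above, and the cause of these rises was not tested. Dimmer probes gave smaller bounds, at least 2.52-fold for Bmp4, at least 8.90-fold for Sfrp1, at least 6.31-fold for Nkx2-2, and at least 23.0-fold and at least 6.21-fold for Ccnd1. The other probes of Foxa2 and Pax6 were above background on no array and were not called (log2 changes of 0.05 and 0.26). The largest adjusted p of these 8 genes, for Pax6, was 1.66e-11 (limma). The forkhead genes Foxf1, Foxf2 and Foxl1, which respond to Hedgehog ligands in gut mesenchyme, were above background on no array.

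Among genes of cilium assembly and transport, 9 were higher, 2 were lower and 23 were not called of 34 (32.4% called, against 34.5% of all genes, with a median change of 0.16). All 11 called genes were among the 27 of the list above background on at least 1 array. Of all such genes on the array, 60.1% were called. Ift22 was 3.60-fold higher in MIN6 cells, Ift27 3.54-fold, Ift20 3.12-fold and Ift80 2.94-fold. All 4 encode proteins of the intraflagellar transport trains that build the cilium. Ift43, also of these trains, was 2.38-fold lower and Mks1, of the transition zone at the ciliary base, 1.87-fold lower. The largest adjusted p of these 6 genes, for Mks1, was 4.33e-07 (limma). The other probes of Ift20 and Ift27 were also called higher, while the other Ift80 probe was above background on no array and was not called (log2 change of 0.09).

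**Figure D3:**
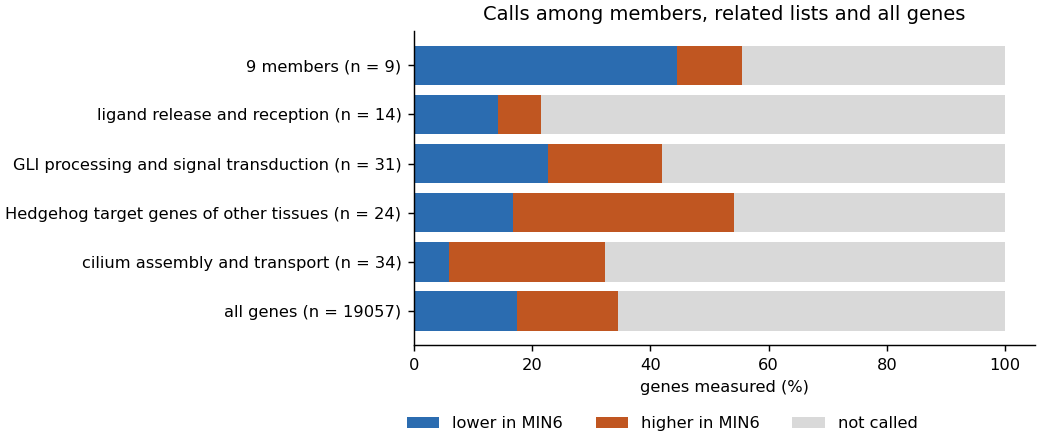
Share of measured genes (horizontal axis, in percent) called lower (blue) or higher (orange) in MIN6 cells or not called (grey), for the 9 Hedgehog pathway genes, the 4 related lists and all 19057 genes. Of the 9 genes, 4 were lower and 1 was higher, and of all genes 17.5% were lower and 17.1% higher.

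For each called member, genes with the same above-background calls on the 6 arrays were ordered by how close their fitted log2 change was. For Gli2, among 970 such genes, these were Triml1 (-5.26) and Ccnd1 (-5.30), the second of which is also among the target genes above. For Gli3 they were Tmem79 and Ly75 (both -2.77), and for Smo Tpm2 (-2.38) and Zfp423 (-2.39). For Ptch1, among 7222 genes above background on every array, they were Cwc22 and Tgm2 (both -1.32), and for Shh, among 986 genes, Msh5 and C330013E15Rik (both 1.04). Apart from those of Ptch1, these fitted changes involve a cell line at background, whose signals set their size, so they do not show that the true changes are alike.

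**Figure D4:**
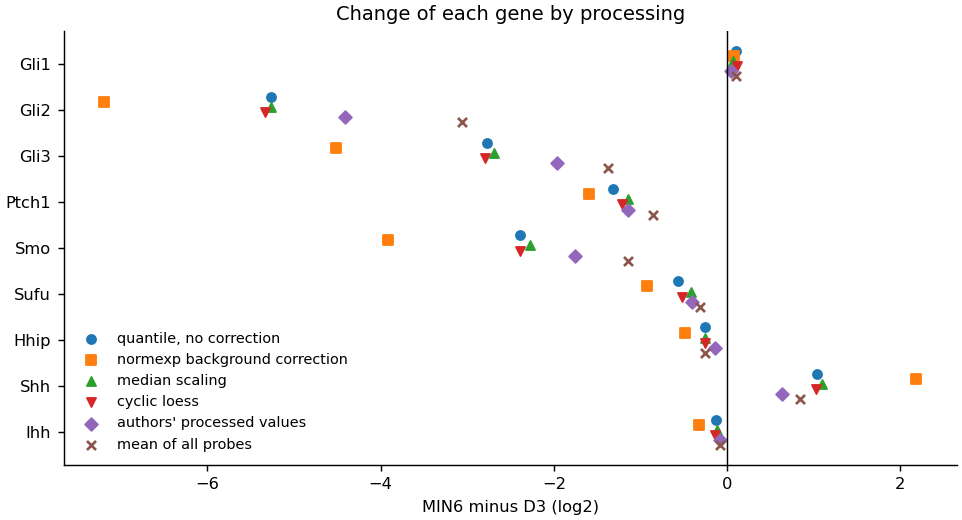
Fitted change from D3 to MIN6 cells on the log2 scale (horizontal axis) for each of the 9 genes under 6 ways of processing the signals. The 5 called genes keep their direction under all 6, and Gli2 ranges from -7.19 with normexp background correction to -3.06 with the mean of its probes.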

How the data were processed

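The authors deposited a table of probe intensities on a linear scale, neither background-subtracted nor normalized, with detection scores whose heading says p-value while the values are 1 minus p, as they were read here. Their deposited processed values (log2-like, with a median of 7.86 on every array), quantile-normalized with lumi per the methods, entered 1 alternative only, and no source used here gives their transformation.

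Quantile normalization across the 6 arrays was followed by log2, without background correction or a filter on dim probes. The difference of MIN6 from D3 was fitted for each probe in R 4.3.3 (limma 3.58.1, statmod 1.5.0). P-values were adjusted over all 45281 probes. A probe counted as above background at a detection p under 0.01. A lower bound sets the mean of the brighter line against, on each array of the other, the higher of the probe's own signal and the dimmest signal above background. Of the probes, 34885 have 1 gene symbol, 18 several and 10378 none. Of the 20 member probes, 17 carry an accession of a RefSeq transcript of their gene. The members, lists, tests and alternatives were chosen with earlier results of these data known. Named beyond the members were up to 4 genes of largest change in each direction from each list, among those called and above background on all arrays of a cell line, and the 2 genes nearest in change to each called member. Genes above background on no array were named after their values were seen. The lists lack 5 genes that were not analysed here. Steps were tested on simulated data. Promoters came from RefSeq, whose table also served for names. Figures used Python 3.11.15 and matplotlib 3.10.9. Alternatives were median scaling, cyclic loess, normexp correction of background (neqc with an offset of 16), filters on detection, a trended robust prior, a replicate block, the processed values, each array left out, the methods' t-test, other fold thresholds and the mean of all probes.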

Additional observations from a re-analysis of the deposited data

How the results depend on the processing

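Gli2, Gli3, Smo, Ptch1 and Shh kept their direction and their call under all 19 alternatives, and 1 higher and 4 lower members were called under all but 3. Without MIN6 replicate 2 there were 5 lower, with normexp background correction 5 (Sufu at -0.93 on the log2 scale), and with no fold threshold 6 (Sufu at -0.57 and Hhip at -0.26). With each array left out in turn, Sufu ranged from -0.62 to -0.48, crossing the threshold without MIN6 replicate 2, and Ihh from -0.29 to 0.05, its sign turning without D3 replicate 2. Ihh was not called under any alternative. With no fold threshold 5 genes of ligand release and reception were lower, 10 of signal transduction and 15 of the cilium were higher. With the mean of all probes 4 transduction genes were lower, and at least 2-fold was reached by 1 cilium gene that was lower. Fold sizes depended on the processing, with Gli2 from -7.19 (normexp) to -3.06 (mean of all probes) and Shh from 0.63 (processed values) to 2.18 (normexp), and the cause was not tested. The filters left out Gli1, Hhip and Ihh, which are above background on fewer than 3 arrays. Gli2, Gli3 and Smo passed the filters through the D3 arrays alone, and Shh through the MIN6 arrays alone. The filters, the trended prior, the replicate block and the t-test leave each fitted change as it is. Dropping the fold threshold cannot remove a call. The 19 alternatives are therefore not 19 separate checks of these calls.

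Arrays that share a replicate number did not deviate together in the normalized signals (r = 0.00993, -0.0028 and -0.0226 across probes). No pairing by number was thus seen, and the labels do not say how the numbers were given. A replicate block cannot move a fitted change when each line has 1 array of each number, so Gli2 stayed at -5.26 and Shh at 1.04. Calls could change only through the p-values. The calls of all 9 members were as before, and 6580 genes were called with and without the block, which does not bear on pairing. Signals near background limit what can be said of Gli1, Hhip, Ihh and Shh, and of the size of the Sufu difference.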
